A study of Mus musculus with 10 samples.

Results

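The genes described are 10 neural crest specifier transcription factors, *Twist1*, *Snai1*, *Snai2*, *Tfap2a*, *Tfap2b*, *Msx1*, *Msx2*, *Pax3*, *Ets1* and *Foxd3*. They were taken by gene symbol from a table of raw counts, in which all 10 are present among 43346 genes. Polyadenylated RNA was sequenced from mouse O9-1 cells, a tetraploid cell line from the cranial neural crest. The wildtype (WT) group holds 4 biologically independent samples of the unedited line. Each of the other groups holds 3 single-cell clones edited by CRISPR/Cas9, named Kat5/1 to Kat5/3 for *Kat5*, the acetyltransferase of the Tip60/Ep400 complex, and Ep400/1 to Ep400/3 for *Ep400*, its chromatin remodeling ATPase. The Kat5 ko clones carry frameshifts in all alleles, as does clone Ep400/1. Clones Ep400/2 and Ep400/3 combine frameshifts with short in-frame deletions in the ATP binding site. Because edited cells went through a single-cell stage and the WT cells did not, cloning and genotype cannot be told apart. No animals, and no treatment or time course, entered this experiment.

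Specifier factors stand between the signals that set up the neural plate border and the genes that neural crest cells use to leave the neural tube, migrate and form mesenchyme, nerves, glia or pigment cells. Pax3, Msx1, Msx2 and the AP-2 factors Tfap2a and Tfap2b are active from the border stage on. Foxd3, Snai1, Snai2, Twist1 and Ets1 mark the specified and delaminating crest, with the Snail and Twist proteins known as repressors of epithelial genes and Twist1 also as a factor of cranial mesenchyme.

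The deposited counts summed to between 30968945 and 44776201 per WT library, to between 32709984 and 48301792 in the Kat5 ko clones and to between 32950540 and 41231337 in the Ep400 ko clones. The targeted genes followed the labels. *Kat5* was at 1818 to 2141 normalized counts in WT libraries and at 611.4 to 862.9 in Kat5 ko clones (log2-fold change −1.40, adjusted p = 0.0207), and *Ep400* was at 5839 to 6153 in WT libraries and at 2039 to 2287 in Ep400 ko clones (−1.45, adjusted p = 0.00120). Normalized counts are raw counts brought to a common effective library size by TMM, and adjusted p-values come from the quasi-likelihood test of edgeR, with the Benjamini-Hochberg method over all tested genes, unless another tool is named. A gene is said to have risen or fallen where the adjusted p is at most 0.05. For a DEG, the change also had to reach 1 on the log2 scale and the mean had to exceed 100 normalized counts in 1 or both groups. Library WT/3 stood apart from the other WT libraries. Among 14079 genes, 538 (3.82%) were so high in WT/3 that its gap to the next WT library exceeded the 95% limit of Dixon's test, against 43, 192 and 85 genes for WT/1, WT/2 and WT/4. For the specifier genes described, results that rest on WT/3 are given with and without it.

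To show the sequence next to the start sites, the 250 bases upstream of the RefSeq start (GRCm38.p6) are given for 4 members, all free of annotated exons. *Twist1* and *Snai1* were chosen because their values lay on opposite sides of WT in the Ep400 ko clones, *Msx1* because it differed between the ko groups, and *Foxd3* because it had no reads. The *Twist1* stretch lies at chr12:33957421-33957670 on the plus strand, that of *Snai1* at chr2:167537945-167538194 on the plus strand, that of *Msx1* at chr5:37824586-37824835 on the minus strand and that of *Foxd3* at chr4:99656049-99656298 on the plus strand. Each reads 5′ to 3′ on the strand of its gene, and capitals mark E-boxes (CANNTG, the core bound by Twist and Snail proteins) and the letters TATAAA.
Twist1: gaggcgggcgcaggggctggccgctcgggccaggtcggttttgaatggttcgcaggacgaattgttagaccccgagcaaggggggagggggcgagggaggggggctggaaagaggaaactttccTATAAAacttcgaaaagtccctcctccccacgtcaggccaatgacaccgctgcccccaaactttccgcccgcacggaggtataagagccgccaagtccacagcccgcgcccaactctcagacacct
Snai1: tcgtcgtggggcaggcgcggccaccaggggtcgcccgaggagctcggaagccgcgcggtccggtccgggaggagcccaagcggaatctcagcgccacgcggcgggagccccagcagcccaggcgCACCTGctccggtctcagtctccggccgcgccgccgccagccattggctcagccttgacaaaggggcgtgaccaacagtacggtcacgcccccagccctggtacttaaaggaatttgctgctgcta
Msx1: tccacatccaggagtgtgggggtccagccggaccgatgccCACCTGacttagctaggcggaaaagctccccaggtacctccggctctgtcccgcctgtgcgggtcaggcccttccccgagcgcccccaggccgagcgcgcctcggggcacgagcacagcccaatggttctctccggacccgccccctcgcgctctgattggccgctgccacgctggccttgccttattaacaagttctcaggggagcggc
Foxd3: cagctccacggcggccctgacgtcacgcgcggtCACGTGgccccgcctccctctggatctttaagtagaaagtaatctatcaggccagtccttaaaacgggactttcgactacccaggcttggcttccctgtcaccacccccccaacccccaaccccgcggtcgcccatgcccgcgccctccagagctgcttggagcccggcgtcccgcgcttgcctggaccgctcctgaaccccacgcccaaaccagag

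The *Snai1* stretch holds 1 E-box, which starts at position −126 relative to the start site, and the *Msx1* stretch holds 1 that starts at −210. Both have the letters CACCTG, the form preferred by Snail proteins. These letters or their complement CAGGTG were present in 17.2% of 32851 promoter stretches of the same length, and any E-box in 66.2%. The E-box of *Foxd3* reads CACGTG and starts at −217. The *Twist1* stretch holds no E-box and has TATAAA at −126, letters found on either strand in 12.4% of the stretches. Searched on both strands, the AP-2 letters GCCNNNGGC occurred once in the *Snai1* stretch, in none of the other 3 shown and in 13.7% of all stretches. All 4 stretches are rich in CpG, with 18 in *Twist1*, 27 in *Snai1*, 20 in *Msx1* and 21 in *Foxd3*, against a median of 6. Of the 10 members, 7 had an entry, and *Snai2*, *Pax3* and *Ets1* had none.

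In WT cells the members covered a wide range of levels. Per kilobase of exon, *Twist1* was highest with a mean of 1612 normalized counts (range 1422 to 1818), clear of every other member. *Snai2* (503.1), *Snai1* (486.8) and *Ets1* (453.2) followed with ranges that overlapped each other, and *Tfap2a* (255.6, range 147.6 to 339.6) lay below all 3 without overlap. *Msx1* had a mean of 204.8, but its range of 63.2 to 589.1 reached from below *Tfap2a* to within the range of *Snai2*. *Tfap2b* (35.5, range 5.44 to 119.5) overlapped *Msx1*, and *Msx2* (3.71) and *Pax3* (0.812) were lowest among detected members, with overlapping ranges. *Foxd3* had 0 reads in all 10 libraries, which allows a level of up to 0.0621 to 0.0969 CPM, the value of 3 counts in a library, for counting error only. These cells thus had reads for 9 of the 10 specifiers, at levels per kilobase between that of *Twist1* and that of *Pax3*.

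**Figure D1:**
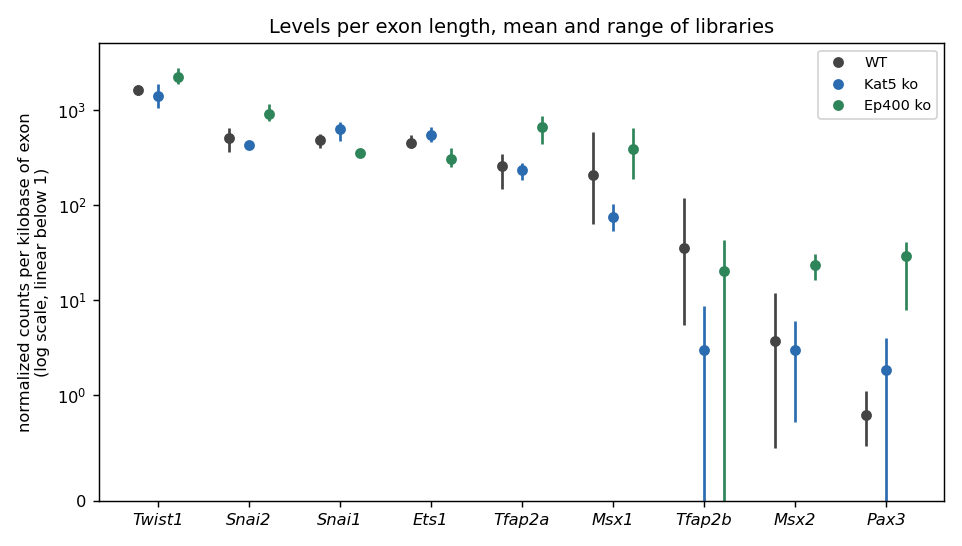
Normalized counts per kilobase of exon (y axis, log scale that is linear below 1) for the 9 detected members, ordered by WT mean. Points are group means and lines run from the lowest to the highest library (WT n = 4, Kat5 ko n = 3, Ep400 ko n = 3). *Twist1* is highest in each group, and *Pax3* moves from a WT mean of 0.812 to 28.9 in the Ep400 ko clones.

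The first comparison asked what loss of Kat5 does to the specifiers. None of the 7 members with enough reads to test rose or fell in the Kat5 ko clones, and each of them overlapped the WT range. *Msx2*, *Pax3* and *Foxd3* were too low to pass edgeR's filter. Over all 13434 tested genes, 0.179% rose and 0.447% fell, and 9.67% lay above and 10.2% below the WT range without overlap. At an unadjusted p under 0.05 the number of members was also 0 with edgeR, whereas 2996 of all tested genes were under that limit. With DESeq2 it was 0 and with limma-voom 1, and neither tool called a member after adjustment. DESeq2 gave no p-value for *Tfap2b* and *Msx1*, so its results do not cover them. The number of genes called over the whole table depended on the analysis. It was 84 with edgeR, 98 with limma-voom, 1382 (9.46%) with DESeq2 and 2654 (19.4%) with edgeR without Kat5/1, and no member was among them in any of these.

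*Twist1* had 2960, 2316, 2836 and 2385 normalized counts in WT/1 to WT/4 and 1683, 3032 and 2168 in Kat5/1 to Kat5/3. The clones straddled the WT values, with Kat5/1 below and Kat5/2 above all WT libraries. The log2-fold change was −0.23 (95% interval −0.70 to 0.25, adjusted p = 0.554). The chromosome of *Twist1*, 12, had a median of −0.275 (log2, against the WT mean) over its genes in Kat5/1, and its part in the low value of that clone was not tested.

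*Snai1*, a zinc finger repressor of *Cdh1* and other epithelial genes, had 898.2, 790.2, 826.3 and 641.9 normalized counts in the WT libraries and 1204, 763.6 and 1113 in the Kat5 ko clones. Clones 1 and 3 lay above all WT libraries and clone 2 among them (0.35, 95% interval −0.11 to 0.82, adjusted p = 0.340). Its paralog *Snai2* had 1147, 725.6, 900.1 and 1294 in WT and 943.5, 811.5 and 829.2 in Kat5 ko clones, all inside the WT range (−0.27, 95% interval −0.77 to 0.23, adjusted p = 0.498). For these 2 genes the intervals leave room for changes of less than 1 on the log2 scale in either direction.

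*Tfap2a*, with 1292, 723.4, 1665 and 1333 normalized counts in WT and 1341, 1229 and 892.4 in Kat5 ko clones, showed no separation (−0.15, 95% interval −0.79 to 0.49, adjusted p = 0.793). The sign of this small value turned when WT/3 or Kat5/3 was left out (0.03 and 0.02). *Ets1*, an ETS family activator of cranial crest delamination, had 3564, 4561, 3336 and 3905 in WT and 3912, 5657 and 4375 in Kat5 ko clones. Only Kat5/2 exceeded the WT range (0.24, 95% interval −0.15 to 0.63, adjusted p = 0.429).

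For *Msx1* and *Tfap2b*, WT/3 was far above the other WT libraries and the intervals were wide. *Msx1*, a homeodomain factor of the border and of facial mesenchyme, had 239.1, 277.8, 1825 and 195.9 normalized counts in WT/1 to WT/4 and 319.3, 219.8 and 163.4 in the Kat5 ko clones. WT/3 had 7.68 times the mean of the other WT libraries, and the Kat5 ko clones lay around those 3 (−1.46, 95% interval −3.34 to 0.41, adjusted p = 0.325; −0.04 without WT/3). *Tfap2b* had 34.5, 72.1, 757.3 and 36.2 in WT and 0, 55.3 and 1.64 in Kat5 ko clones. Clones 1 and 3 were below all WT libraries and clone 2 among them, with a log2-fold change of −3.64 (95% interval −7.65 to 0.36, adjusted p = 0.259). Without WT/3 the value was −1.39 (adjusted p = 0.594) and without Kat5/2 it was −7.79 (adjusted p = 0.149).

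The 3 members left out by edgeR's filter on low counts were low in both groups. *Pax3* had 5, 3, 7 and 5 raw counts in the WT libraries and 9, 0 and 30 in the Kat5 ko clones. *Msx2* had 5, 2, 40 and 2 raw counts in WT libraries and 19, 2 and 9 in Kat5 ko clones, again with WT/3 highest. DESeq2, which does not use that filter, tested *Pax3* and *Msx2* and called neither.

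**Figure D2:**
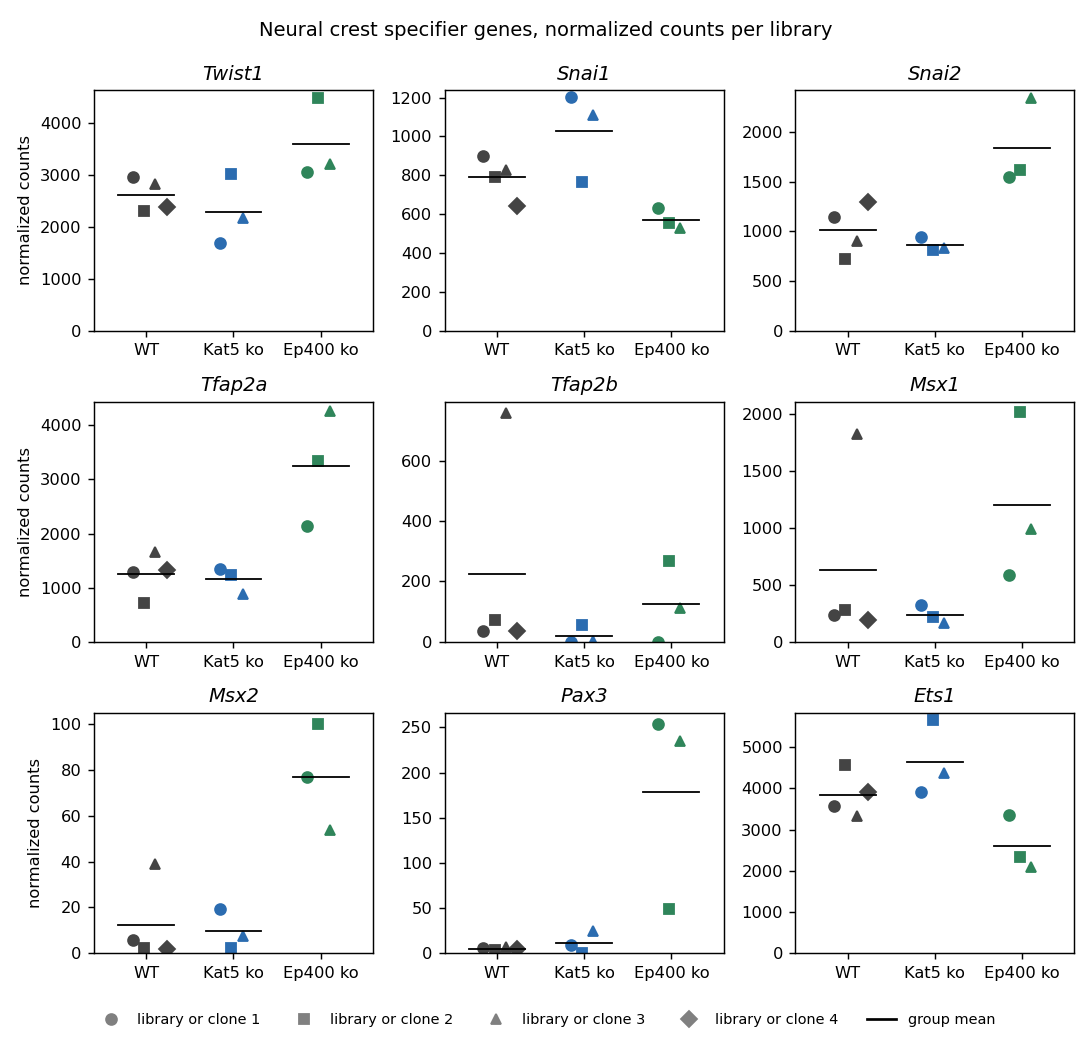
Normalized counts (y axes, linear, starting at 0) of the 9 detected members in each of the 10 libraries. Symbols give the library or clone number and bars the group mean. The Ep400 ko clones lie above all WT libraries for *Twist1*, *Snai2*, *Tfap2a*, *Msx2* and *Pax3* and below them for *Snai1*, and WT/3 is far above the other WT libraries for *Tfap2b*, *Msx1* and *Msx2*.

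The second comparison asked the same of Ep400, with the same 4 WT libraries as controls. Of 9 tested members, *Pax3*, *Tfap2a* and *Snai2* rose in the Ep400 ko clones and none fell, whereas 8% of all 13836 tested genes rose and 5.72% fell. In 5 members, these 3 and *Twist1* and *Msx2*, all Ep400 ko clones were above all WT libraries, against 16.1% of tested genes. *Snai1* alone lay below without overlap, against 14.1% of tested genes. *Pax3* and *Msx2* passed the filter on low counts here through their reads in the Ep400 ko clones, so they were tested only because they were high there. Among the other 7, 2 rose and 3 lay above WT without overlap. *Pax3* and *Tfap2a* met the definition of DEGs, while *Snai2* changed by less than 1 on the log2 scale.

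*Pax3*, a paired-box factor of the border and of the melanocyte and glial lineages, had 5.95, 3.23, 6.81 and 4.12 normalized counts in WT/1 to WT/4 and 253.4, 48.9 and 234.6 in Ep400/1 to Ep400/3. All clones lay above the WT libraries, and clone 2, in which most alleles carry an in-frame deletion, was the lowest of them. The means were 5.02 ± 1.64 (SD, n = 4) and 179 ± 113 (SD, n = 3), which corresponded to 5.13 on the log2 scale (standard error 0.645, adjusted p = 0.00369). *Pax3* was past the threshold in 9 of 9 alternative analyses with all libraries and in 7 of 7 with 1 library left out. It passed the filter on low counts through the Ep400 ko clones, so fits with that filter tested it only because it was high there. Without the filter, edgeR gave an adjusted p of 0.000378. The gene (ENSMUSG00000004872) spans positions 78101267 to 78197134 of chromosome 1 (GRCm38, minus strand).

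*Tfap2a*, which encodes AP-2alpha, required for cranial crest and facial development, had 2148, 3337 and 4259 normalized counts in Ep400/1 to Ep400/3, all above the highest WT library at 1665. The means were 1253 ± 391 (SD, n = 4) in WT and 3248 ± 1059 (SD, n = 3) in Ep400 ko clones (log2-fold change 1.37, standard error 0.305, adjusted p = 0.0230). The value stayed between 1.13 and 1.60 when 1 library was left out, but the adjusted p then ranged from 0.0171 to 0.0641 and the call was lost without WT/1, WT/4, Ep400/2 or Ep400/3. *Tfap2a* (ENSMUSG00000021359, minus strand of chromosome 13, from 40715302 to 40738376) shares exon sequence with *Gm26688* on the opposite strand. The latter had 3 to 82 raw counts per library, against 672 to 4593 for *Tfap2a*.

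*Snai2*, encoding the Snail family repressor Slug, had 1554, 1624 and 2343 normalized counts in the Ep400 ko clones and at most 1294 in WT. The means were 1017 ± 253 (SD, n = 4) and 1840 ± 437 (SD, n = 3), or 0.86 on the log2 scale (standard error 0.235, adjusted p = 0.0451). This call was close to the threshold. With 1 library left out the log2-fold change was 0.64 to 0.99 and the adjusted p 0.0478 to 0.115, and it passed only without Ep400/1. *Snai2* (ENSMUSG00000022676) lies on the plus strand of chromosome 16, from 14705852 to 14709385, and the genes of this chromosome had a median of −0.316 (log2, against the WT mean) in WT/3. The call was also made with an offset for chromosomes.

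The other Snail gene lay on the opposite side. *Snai1* had 630, 551.8 and 530.4 normalized counts in the Ep400 ko clones, all below the lowest WT value of 641.9, but by a small margin. The log2-fold change was −0.47 (95% interval −0.86 to −0.07, adjusted p = 0.104), above the threshold. *Twist1*, with 3068, 4497 and 3216 in the Ep400 ko clones, was above its highest WT value of 2960 in each, and was highest in clone 2 (0.45, 95% interval 0.06 to 0.85, adjusted p = 0.112).

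*Ets1* had 3351, 2336 and 2105 normalized counts in the Ep400 ko clones. Clone 1 lay within the WT range and clones 2 and 3 below it (−0.57, 95% interval −1.01 to −0.13, adjusted p = 0.0847). The threshold was passed without Ep400/1 (−0.79, adjusted p = 0.0270) and with the chromosome offset. *Tfap2b* had 0, 268.9 and 111.3 in the Ep400 ko clones, so that clone 1 was below all WT libraries and clones 2 and 3 were above 3 of the 4 (−0.84, 95% interval −4.25 to 2.58, adjusted p = 0.735). Without WT/3 its sign turned to 1.40 (adjusted p = 0.489).

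The MSX genes depended on WT/3. *Msx1* had 583.7, 2014 and 991.3 normalized counts in the Ep400 ko clones, above WT/1, WT/2 and WT/4 in each, with WT/3 (1825) among the clones. The log2-fold change was 0.91 (95% interval −0.93 to 2.76, adjusted p = 0.466) with all libraries and 2.32 (adjusted p = 0.0208) without WT/3. *Msx2* had 5.95, 2.15, 38.9 and 1.65 in WT/1 to WT/4 and 76.9, 100.1 and 53.8 in Ep400/1 to Ep400/3. Here the clones exceeded WT/3 as well (2.64, 95% interval 0.49 to 4.80, adjusted p = 0.0953; 4.56 without WT/3, adjusted p = 0.00754). DESeq2 and limma-voom called *Msx2* also with all libraries. Without WT/3, *Tfap2a*, *Msx1*, *Msx2* and *Pax3* made up the 4 members that rose, and *Snai2* no longer passed.

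**Figure D3:**
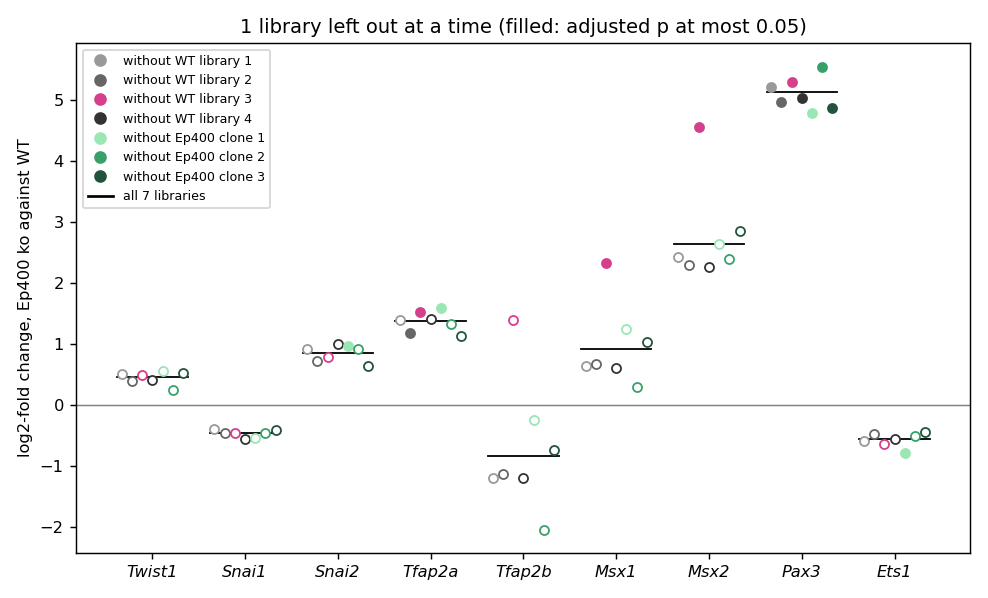
Log2-fold change of the 9 tested members between Ep400 ko clones and WT (y axis) with each of the 7 libraries left out in turn. Lines mark the value with all 7 libraries, and filled points an adjusted p of at most 0.05. Only *Pax3* is filled throughout, whereas *Msx1* and *Msx2* are filled only without WT/3. *Pax3* and *Msx2* passed the filter on low counts through the Ep400 ko clones.

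The ko groups were also compared directly, to test whether the specifiers differed between loss of Ep400 and loss of Kat5. *Tfap2a*, *Snai2* and *Msx1* were higher in the Ep400 ko clones, and no member was lower. Among all 13587 tested genes, 4.22% were higher and 2.83% lower. The log2 difference was 1.47 for *Tfap2a* (standard error 0.297, adjusted p = 0.0375), 1.07 for *Snai2* (standard error 0.227, adjusted p = 0.0409) and 2.33 for *Msx1* (standard error 0.497, adjusted p = 0.0415). *Msx1* missed the threshold with limma-voom (adjusted p = 0.0522), with 1 fit of all 10 libraries (adjusted p = 0.0660) and with the replicate numbers as a block (adjusted p = 0.0754), and passed it in the other 6 of 9 alternatives. WT/3 does not enter this comparison. *Msx1* had 163.4 to 319.3 normalized counts in Kat5 ko clones and 583.7 to 2014 in Ep400 ko clones.

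Groups did not overlap for 8 of the 9 tested members, of which *Pax3* and *Msx2* again passed the filter through the Ep400 ko clones. *Twist1*, *Snai2*, *Tfap2a*, *Msx1*, *Msx2* and *Pax3* were higher in all Ep400 ko clones, against 20.5% of tested genes, and *Snai1* and *Ets1* lower in all of them, against 18%. *Msx2* (2.92, adjusted p = 0.0562), *Pax3* (3.92, adjusted p = 0.0764), *Snai1* (−0.87, adjusted p = 0.0656) and *Ets1* (−0.86, adjusted p = 0.0671) missed the threshold by little, and *Twist1* (0.63, adjusted p = 0.151) and *Tfap2b* (2.75, adjusted p = 0.366) by more. None of the 3 calls was made when Kat5/2, Kat5/3, Ep400/2 or Ep400/3 was left out. In those fits between 3 and 81 genes passed in all, against 958 with every library.

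**Figure D4:**
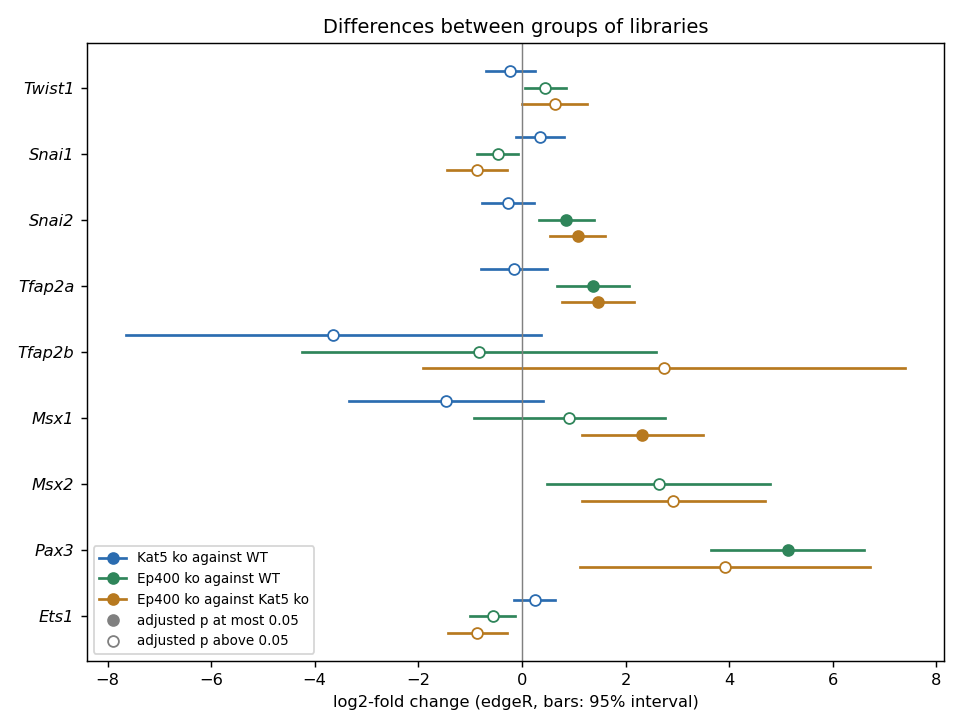
Log2-fold changes (x axis) with 95% intervals for the 9 detected members in 3 comparisons. Filled points have an adjusted p of at most 0.05. No Kat5 ko point is filled, and *Tfap2b* has the widest intervals.

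Around the specifiers, other genes of the crest network were read from lists. Of 15 relatives in the same transcription factor families, 5 had enough reads. *Msx3* fell in the Kat5 ko clones, from 70.5 to 1.16 normalized counts, and in Ep400 ko clones *Foxd1* rose from 201.7 to 530.4 (log2-fold change 1.39, adjusted p = 0.0248) and *Foxd2* from 14.2 to 37.7. *Msx3* differed between the ko groups too, with 62.0, 526.2 and 216.1 in Ep400/1 to Ep400/3. In that comparison *Msx3* passed the filter on low counts through the Ep400 ko clones. For its fall in the Kat5 ko clones it passed through the WT libraries. Thus forkhead genes of the Foxd family were detected although *Foxd3* was not.

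Of 15 border specifiers and early crest factors, 4 were tested in the Ep400 ko clones and *Dlx5*, a distal-less homeobox gene of the border and jaw, rose. It had 0 to 1.08 normalized counts in WT libraries and 12.2, 36.1 and 42.7 in the clones. *Dlx5* passed the filter on low counts through the Ep400 ko clones, so it was tested only because it was high there. Against Kat5 ko clones, *Dlx5* and *Prdm1* (4.24 and 110.8 on average) were higher, and both passed the filter through the Ep400 ko clones. Of the 3 tested in Kat5 ko clones edgeR called 0, with 2 at an unadjusted p under 0.05, limma-voom called 0, and DESeq2 called 1 lower.

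Of 24 genes that act below the specifiers in migrating crest and its lineages, 16 were tested in Ep400 ko clones, where 5 rose and 1 fell. *Cdh11*, a cadherin of migrating crest, had 174 to 438.6 normalized counts in WT and 5501, 4768 and 10450 in the Ep400 ko clones (4.40, adjusted p = 0.00133). The endothelin receptor gene *Ednrb* (2.44 and 45.7 on average) and the integrin gene *Itga4* (2.35 and 23.9) also rose, as did *Erbb3* and *Crabp1*. *Ednrb* and *Itga4* passed the filter on low counts through the Ep400 ko clones, so they were tested only because they were high there. *Mycn* fell from 126.8 to 8.17, and it passed the filter through the WT libraries. In Kat5 ko clones 1 of 13 tested genes was called, *Mitf*, the melanocyte regulator, which fell from 499.3 to 139 (−1.87, adjusted p = 0.0493), while 7 had an unadjusted p under 0.05. DESeq2 called 1 gene of this list higher and 5 lower there, and limma-voom called 0, so that *Mitf* was not called with limma-voom. Between the ko groups 4 of 16 were higher in Ep400 ko clones, *Ednrb* (0 in every Kat5 ko clone), *Ednra*, *Erbb3* and *Crabp1*. Of these, *Ednrb* and *Ednra* passed the filter through the Ep400 ko clones.

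Genes of the epithelial-to-mesenchymal transition, the program that Snail and Twist factors are known for, were counted in separate lists. Of 17 epithelial genes 7 were tested in each ko against WT. The Kat5 ko clones gave 0 calls with edgeR, though 4 genes had an unadjusted p under 0.05 and DESeq2 called 2 lower and limma-voom 0. In Ep400 ko clones 4 fell and none rose, while 5.72% of all tested genes fell and 8% rose. The genes that fell were *Cldn6* (219.7 and 3.32 normalized counts on average), *Krt18* (42.0 and 0.618), *Cdh3* (79.6 and 2.98) and *Krt8* (60.7 and 13.0). These genes passed the filter on low counts through the WT libraries, so they were tested only because they were high there. Genes low in both groups, such as *Ovol1* (1.05 and 5.35), were not tested. WT/3 raised the WT averages of *Cldn6* (143.9, 161.5, 444.2 and 129.2 in WT/1 to WT/4) and *Krt18* (28.6, 12.9, 105 and 21.4). The Ep400 ko clones had at most 8.15 and 1.86. *Cldn6* was also lower in Ep400 ko than in Kat5 ko clones (57.5, 1168 and 129.7 in Kat5/1 to Kat5/3), where 4 were tested. All 8 mesenchymal genes were tested, and 2 rose in Ep400 ko clones, *Fn1*, encoding fibronectin (1.29, adjusted p = 0.0152), and *Zeb2*, a zinc finger repressor (0.97, adjusted p = 0.0148). In Kat5 ko clones and between ko groups edgeR, DESeq2 and limma-voom called 0 of them, and with edgeR 1 and 4 had an unadjusted p under 0.05.

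Of 18 dimerization partners and co-regulators, 14 were tested. In Kat5 ko clones edgeR and limma-voom called 0, edgeR had 4 at an unadjusted p under 0.05, and DESeq2 called 2 higher. In Ep400 ko clones *Kdm1a*, a histone demethylase recruited by Snail proteins, fell from 4746 to 3110 (−0.61, adjusted p = 0.0185) and *Ajuba*, a LIM protein that binds them, from 2786 to 1838 (−0.60, adjusted p = 0.0336). Between the ko groups, *Ajuba* was lower in the Ep400 ko than in the Kat5 ko clones. The latter averaged 5819, above WT but not called with edgeR (log2-fold change 1.03, adjusted p = 0.0696).

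Markers of cell types were checked beside these values. Of 10 markers of cultured crest mesenchyme 9 were tested, and *Pdgfra*, *Pdgfrb* and *Prrx2* were higher in Ep400 ko clones than in either other group. The other 6 tested were not called in these comparisons. Of these, *Prrx1*, *Cd44*, *Ly6a* and *Vim* were higher on average than in WT, and *Eng* and *Nes* were lower. *Pdgfra*, a growth factor receptor of crest mesenchyme, had 3915 to 5076 normalized counts in WT and 19360 to 24160 in Ep400 ko clones. The list summed to 289200 to 355100 in WT libraries, 269400 to 277400 in Kat5 ko and 347400 to 479400 in Ep400 ko clones. Most of each sum came from *Vim*, with 231300 to 293700 in WT libraries. The crest marker *Sox10* was at 0 in all libraries, as were the melanocyte genes *Dct*, *Tyr* and *Tyrp1*.

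The tested neuron markers rose in the Ep400 ko clones. These were *Tubb3* and *Stmn2*, both tested of 8, and *Stmn2* passed the filter on low counts through the Ep400 ko clones. In Ep400/1 to Ep400/3 *Tubb3* had 851.1, 403.9 and 192 normalized counts and *Stmn2* 101.4, 130.4 and 39.9. *Tfap2a* and *Snai2* were highest in Ep400/3, and *Pax3* was lowest in Ep400/2. *Msx2*, which edgeR did not call with all libraries, was highest in Ep400/2 and lowest in Ep400/3, as *Stmn2* was. The list summed to 240.2 to 960.3 in Ep400 ko clones, against 112.8 to 212.9 in WT and 65.7 to 375.8 in Kat5 ko clones. Of 7 Schwann cell markers 3 were tested. *Erbb3* rose and *Mbp* fell in Ep400 ko clones, with sums of 279.4 to 516.5 against 199.2 to 304.5 in WT and 112.9 to 154.4 in Kat5 ko clones. *Mbp* passed the filter through the WT libraries. The part of such cells in the members' values was not tested, and in RNA of whole cultures more cells of a type and more RNA per cell cannot be told apart.

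The other marker lists gave few calls. Of 6 melanocyte markers 2 were tested, with *Mitf* the only call, and sums were 297.1 to 614.7 in WT, 117.9 to 176.5 in Kat5 ko and 350.4 to 697.4 in Ep400 ko clones. Of 7 cartilage and bone markers *Acan* fell in Ep400 ko clones (680 and 2.72 on average), with sums of 5158 to 6578, 5213 to 7014 and 4573 to 6122 in the same order of groups. Most of each sum came from *Sox9* and *Runx2* (2453 and 2801 on average in WT). *Col2a1*, *Sp7* and *Bglap* had WT averages of 6.14, 14.5 and 3.43. Of 6 blood and endothelial markers *Pecam1* fell in Ep400 ko clones (46.0 and 4.37), with sums of 226.5 to 287.9, 115.4 to 199.5 and 98.7 to 298. *Acan* and *Pecam1* passed the filter on low counts through the WT libraries. Of 6 epithelial markers 1 was tested and not called, with sums of 17.5 to 45.2, 8.59 to 10.3 and 11.4 to 19.8. The 5 smooth muscle markers gave no call, but their sum ran from 17.2 to 25510 among Kat5 ko clones, against 218.5 to 620.5 in WT and 87.3 to 2192 in Ep400 ko clones.

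For members called in at least 1 comparison, the 3 genes with the most similar profile were found by Pearson's r of log2 CPM (counts scaled to library size) over the 10 libraries, among 14079 genes, as a description in which group differences are shared by many genes. For *Pax3* they were *3830403N18Rik* (0.963), *Sfrp1* (0.963) and *Pcdh15* (0.957). *Sfrp1*, a secreted Wnt antagonist, had 103.3 to 296.5 normalized counts in WT, 390.1, 16.0 and 741.4 in Kat5 ko and 3066, 1853 and 4593 in Ep400 ko clones, and like *Pax3* was lowest in clone 2 of either ko group. For *Snai2* they were *Cc2d2a* (0.984), *Comp* (0.975) and *Coro1a* (0.974), each highest in Ep400/3, as *Snai2* was. For *Tfap2a* they were *Cyb561d1* (0.978), *Foxj2* (0.975) and *Gm10638* (0.972). For *Msx1* they were *E330013P04Rik* (0.961), *Mgst1* (0.953) and *Socs3* (0.944). *Socs3*, a feedback inhibitor of cytokine signaling, had 3756 normalized counts in WT/3 and 1011 to 1373 in the other WT libraries, so it shared the high value in WT/3 with *Msx1*.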

How the data were processed

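RNA-seq libraries (TruSeq Stranded mRNA) were made from 4 WT samples, 3 Kat5 ko and 3 Ep400 ko clones, grouped by their labels. The deposited raw counts are whole reads per gene; per the submitters' processing notes, bcl2fastq 2.20, STAR 2.7.3 and mm10 were used. The counting program, annotation and strand setting are not given in the sources used here. The authors' normalized tables were not used. Raw counts were analysed in R 4.3.3. After filterByExpr and TMM normalization, each comparison was tested with edgeR 4.0.16 (quasi-likelihood, robust) and Benjamini-Hochberg adjustment. DESeq2 1.42.0, limma 3.58.1 (voom), other normalizations and filters, a single fit, chromosome offsets and left-out libraries were alternatives. Normalized counts share 1 TMM scale over all 10 libraries. Coordinates and exon lengths are from GENCODE M21 (GRCm38). The procedure was tested on simulated data in which all genes shared a dispersion and no library stood apart, unlike WT/3 here. Replicate libraries were not duplicates (28.1 to 258 as chi-square over its degrees of freedom). Intervals cover the spread between these samples. Members, lists and tests were chosen with earlier results of these data known. All members are named, in other lists up to 4 called genes by largest log2-fold change per comparison (more where a count is spelled out), and for called members the 3 most similar genes.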

Additional observations from a re-analysis of the deposited data

Results flagged for a closer look

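In library WT/3, *Tfap2b* (757.3 normalized counts), *Msx1* (1825) and *Msx2* (38.9) lay far from the other WT libraries, at 15.9, 7.68 and 12.0 times their mean. The gap to the next WT library took 0.948, 0.950 and 0.884 of the whole range, above the 95% limit of Dixon's test for 4 samples. The test was made for 9 members in the WT group, and chance flags about 1 in 20 such groups. Among 14079 genes in these WT libraries, 8.38% were flagged, and 3.82% for a high value in WT/3. The flagged members share that library, so their flags are not independent of each other.

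The change in Ep400 ko clones differed from that in Kat5 ko clones for *Snai2* (log2 difference 1.07), *Tfap2a* (1.47) and *Msx1* (2.33), each tested directly between the ko groups with edgeR and higher in 3 of 3 Ep400 ko clones than in every Kat5 ko clone. Of all tested genes, 20.5% were higher in this way without overlap. The *Msx1* call was made in 6 of 9 alternatives with all libraries, and those of *Snai2* and *Tfap2a* in 8 of 9. With 1 library left out, *Snai2* was called in 1 of 6 fits, and *Tfap2a* and *Msx1* in 2 of 6 each.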

How the results depend on the processing

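In Kat5 ko clones, 0 members were called under each alternative and with each library left out. Over all genes, 0 were called with the replicate block, 1 without WT/1, 1 without WT/4 and 4 without Kat5/3, so those fits say nothing about the members, but 1382 were called with DESeq2 and 2654 without Kat5/1. In Ep400 ko clones, 3 members were called with 3 other normalizations or filters, the single fit and edgeR without robust estimation (added after seeing the data), and 4 with DESeq2, limma-voom and the chromosome offset. With 1 library left out, 1 to 4 members were called. Between the ko groups, 7 members were called with DESeq2 and 5 with 1 fit of all libraries, against 3, and 0 to 4 with 1 library left out. Over all genes, 19.3% were called with DESeq2 and 25.3% with that fit, against 7.05%. The cause was not tested.

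Replicate numbers did not pair libraries (correlations of deviations −0.163 to 0.23 over 9 pairs, and in 6 of 18 checks a library correlated best with its own number). With a replicate block, 1 member (*Pax3*) was called in Ep400 ko clones and 0 between ko groups, while Kat5 ko clones stayed at 0.

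The sign turned for *Tfap2a* in Kat5 ko clones without WT/3 (0.029) or Kat5/3 (0.016), with −0.321 to 0.029 over all left-out libraries, and for *Tfap2b* in Ep400 ko clones without WT/3 (1.40), with −2.05 to 1.40. DESeq2 gave no p-value for *Tfap2b* and *Msx1* in Kat5 ko clones. *Foxd3* had no reads, and edgeR's filter on low counts left out *Pax3* and *Msx2* in Kat5 ko clones.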
